A study of Mus musculus with 12 samples.

Results

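The 51 genes described here encode proteins of DNA replication (28 genes, from the MCM helicase to the E cyclins) and of mitosis (23 genes, from the A and B cyclins to the kinesins). They were chosen by name. Each was read through its matched array probe, and where several probes matched, the brightest of them, averaged over all 12 arrays, was used. A probe was matched for 50 of the 51 genes (27 replication and 23 mitosis genes), and all 50 were among the 19318 features tested on the arrays. Gins1 had no matched probe. The study measured total RNA of BV-2 cells on one-colour expression arrays. BV-2 is a mouse microglial line immortalised with a retrovirus carrying v-raf and v-myc, so all groups share a transformed background. The 4 groups, of 3 arrays each, were untreated cells, cells given 100 ng/ml LPS (lipopolysaccharide, a bacterial cell wall component sensed by Toll-like receptor 4), cells given 20 µM curcumin (a plant polyphenol) and cells given both agents at those doses, with treatments of 6 h. A vehicle control for curcumin is not named in the labels. The labels do not say whether the replicates were separate cultures, so the p-values measure the spread between these samples, which may be technical.

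Replication and mitosis genes are expressed in successive waves of the cell cycle. In late G1, E2F transcription factors are released from RB family proteins and switch on the genes for origin licensing (Cdc6, Cdt1, the Mcm2 to Mcm7 subunits), for the replication fork (Pcna, Rfc and Rpa subunits, DNA polymerases) and for nucleotide supply. Towards G2, B-MYB and FOXM1 together with the MuvB complex activate the mitotic genes through CHR elements, often beside CCAAT boxes bound by NF-Y. In macrophages, LPS is known to slow the cell cycle, and a mixed population of cells holds both waves at any time. In bulk RNA, fewer cells in a phase and less RNA per cell cannot be told apart.

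The promoters of 4 members, chosen by name, are given first as examples of these motifs. The difference between the classes lies in the tallies over all windows. The windows run from 250 bases before to 50 bases after the annotated start, 5′ to 3′ on the strand of the gene, from the RefSeq table of build GRCm38.p6. Capitals mark E2F-type motifs, CHR motifs and CCAAT, each searched on both strands. E2F-type motifs were the spelling TTCCCGC and its variants with other inner bases, TTCGCGC among them, then TTGCCGC and lastly TTGGCGC. The CHR motif was TTTGAA, with TTCGAA as its other spelling. Motifs may overlap. Mcm5 lies at chr8:75109259-75109558, Cdc6 at chr11:98907901-98908200, Ccnb1 at chr13:100786437-100786736 on the minus strand and Plk1 at chr7:122159185-122159484.
Mcm5: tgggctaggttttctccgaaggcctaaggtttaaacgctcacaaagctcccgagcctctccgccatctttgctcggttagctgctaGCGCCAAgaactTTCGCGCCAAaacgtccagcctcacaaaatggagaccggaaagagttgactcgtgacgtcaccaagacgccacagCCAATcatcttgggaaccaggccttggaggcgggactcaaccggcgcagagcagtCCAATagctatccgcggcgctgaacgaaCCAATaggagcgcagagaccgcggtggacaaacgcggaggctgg
Cdc6: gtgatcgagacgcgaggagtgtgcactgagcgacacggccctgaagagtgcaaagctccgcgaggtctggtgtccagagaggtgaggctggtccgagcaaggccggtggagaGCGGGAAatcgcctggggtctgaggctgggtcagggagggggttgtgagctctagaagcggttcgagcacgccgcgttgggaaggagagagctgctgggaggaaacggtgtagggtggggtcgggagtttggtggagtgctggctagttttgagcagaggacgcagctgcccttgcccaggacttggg
Ccnb1: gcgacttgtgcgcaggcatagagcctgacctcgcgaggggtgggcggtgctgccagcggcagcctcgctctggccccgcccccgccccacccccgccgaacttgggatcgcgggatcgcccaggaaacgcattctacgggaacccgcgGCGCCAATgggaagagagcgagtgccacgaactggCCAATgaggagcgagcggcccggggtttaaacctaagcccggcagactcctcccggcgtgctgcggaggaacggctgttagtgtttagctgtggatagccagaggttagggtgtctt
Plk1: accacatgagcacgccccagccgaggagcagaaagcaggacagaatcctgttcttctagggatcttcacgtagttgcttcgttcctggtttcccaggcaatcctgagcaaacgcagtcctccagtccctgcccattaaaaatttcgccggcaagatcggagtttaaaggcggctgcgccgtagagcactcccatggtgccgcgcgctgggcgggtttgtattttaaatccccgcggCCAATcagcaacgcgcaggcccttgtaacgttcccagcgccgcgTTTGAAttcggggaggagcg
The Mcm5 window held 3 E2F-type motifs and 3 CCAAT motifs, and the Cdc6 window held 1 E2F-type motif. The Ccnb1 window held 1 E2F-type motif, which overlaps 1 of its 2 CCAAT motifs, and the Plk1 window held 1 CHR motif and 1 CCAAT motif. A window was listed for 41 of the 51 members, some with several starts. An E2F-type motif stood in 17 of 27 windows of replication genes (63.0%) and in 3 of 18 windows of mitosis genes (16.7%), against 9.57% of all 32851 windows in the table. A CHR motif stood in 5 of 27 replication windows (18.5%), in 14 of 18 mitosis windows (77.8%) and in 19.2% of all windows. CCAAT stood in 59.3%, 88.9% and 37.4% of them. A match describes the letters only.

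All 50 probes were well above background on every array on which they were measured. Levels below are log2 signals relative to the 75th percentile of all signals on the same array, so a level is read only against the same gene on other arrays. Of 9 macrophage and microglia marker genes that matched a probe, 7 were detected on all 12 arrays, Csf1r, Itgam, Aif1 and Tyrobp among them. Of the 5 markers searched for each of astrocytes, neurons, oligodendrocytes and endothelial cells, 1, 1, 2 and 1 were. Replicate number, slide and scan coincide, each slide carried 1 array of every group, and each group kept 1 position on all 3 slides, so group and slide position cannot be told apart. The LPS+curcumin array of replicate 1 stood apart from its group. It correlated at 0.98 with the LPS arrays and at 0.95 with the curcumin arrays, whereas the other LPS+curcumin arrays correlated at 0.94 and 0.92 with the LPS arrays and at 0.98 with the curcumin arrays. The main counts of called members that involve this group, and most class medians, are therefore also given without this array. Role medians, counts at an unadjusted p and counts of groups that do not overlap include it. Values of single genes and of genes outside the members include it unless stated. On LPS+curcumin replicate 2, the spots of Gins2, Rrm2, Ccne1 and Mki67 were outliers of the scanner software and were left out, so those genes have 2 values in that group.

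The scale matters for every statement on curcumin. The 75th percentile stood 1.13 ± 0.16 log2 units (SD, n = 3) below the spike-in signals in untreated cells, 1.37 ± 0.14 below in LPS, 2.22 ± 0.16 below in curcumin and 2.10 ± 0.66 below in LPS+curcumin. A gene that was level on the percentile scale was thus about 1.08 lower on the spike-in scale with curcumin. Changes are given on the percentile scale, and spike-in values are given for the genes and counts that the results turn on. With curcumin, 31 of the 50 genes had a positive change on the percentile scale and 0 of the 50 on the spike-in scale. The difference between replication and mitosis genes on 1 array does not depend on either scale.

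The gap between replication and mitosis genes had opposite signs with LPS and with curcumin. After centring each gene on its mean over the arrays, the mean of the replication genes minus that of the mitosis genes was 0.00, -0.05 and -0.16 log2 units on the 3 untreated arrays. It was -0.35, -0.17 and -0.38 with LPS, and 0.33, 0.19 and 0.35 with curcumin. The untreated arrays lay above all LPS arrays and below all curcumin arrays. With both agents it was -0.34, 0.13 and 0.44, a spread that covers the LPS and the curcumin arrays. The group means were -0.07 ± 0.08, -0.30 ± 0.11, 0.29 ± 0.09 and 0.08 ± 0.39 in that order (SD, n = 3). These values describe the arrays and carry no test.

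**Figure D1:**
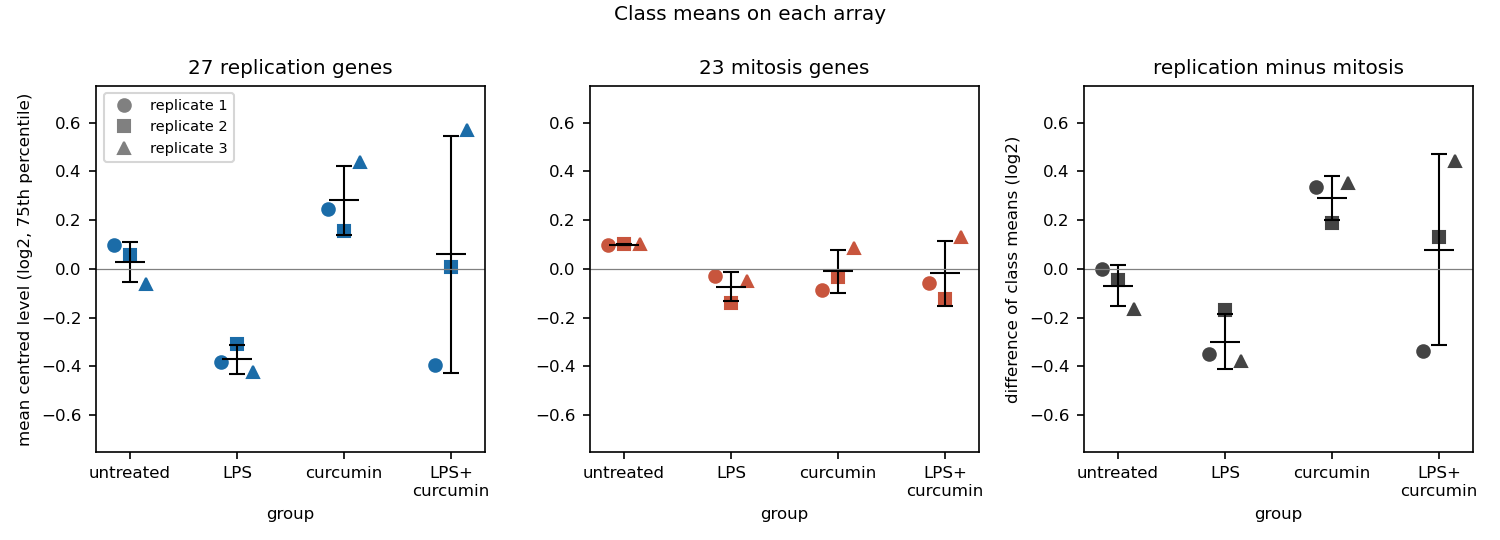
Each point is 1 array (circle, square and triangle are replicates 1, 2 and 3) and the bars are the mean and SD of 3 arrays, for the mean centred log2 level of 27 replication genes (left), 23 mitosis genes (middle) and their difference (right). The replication genes lie lowest with LPS and the difference is highest with curcumin, while the LPS+curcumin arrays run from -0.34 to 0.44.

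With LPS, replication genes lay below untreated cells almost throughout, and Cdc6 alone passed the test. Cdc6, the ATPase that loads the MCM helicase onto origins, had levels of 1.71, 1.77 and 1.51 in untreated cells and of 0.52, 0.93 and 0.78 with LPS. All LPS arrays were below all untreated arrays. Cdc6 fell 1.90-fold (log2 change -0.92 ± 0.195 SE, limma adjusted p = 0.0175 over 19318 features) and was lower on all 3 slides. Its spike-in change was -1.16 (adjusted p = 0.0413). A further Cdc6 probe gave -1.30. Without untreated replicate 1, untreated replicate 2, LPS replicate 1 or LPS replicate 3 the adjusted p of Cdc6 was 0.0703, 0.0956, 0.0914 and 0.0538, with changes from -0.94 to -0.81.

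The call on Cdc6 made 1 of 27 replication genes lower and 0 higher, against 1.61% of all features lower and 4.12% higher. At an unadjusted p under 0.05, 7 replication genes were lower and 0 higher. The median change was -0.42 for the replication genes and 0.01 for all features. The 3 LPS arrays lay below the 3 untreated arrays for 21 of 27 replication genes and above them for 1 of 27, where 15.8% and 16.8% of all features did so. On the spike-in scale 2 were lower and 0 higher, against 1.29% and 1.91%. The estimate of spread is shared by all groups, so arrays of other groups bear on these counts. With LPS+curcumin replicate 1 left out, 4 replication genes were lower (Cdc6, Mcm2, Rpa2 and Rpa1) and 0 higher, against 3.33% and 6.17% of all features. With LPS+curcumin replicate 3 left out, 3 were lower, against 3%, and 0 higher, against 5.3%.

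Among the helicase and loading genes, 10 of 11 had a negative change with LPS, with a median of -0.43. Mcm2, a helicase subunit, had levels of 3.23, 3.46 and 3.43 in untreated cells and of 2.47, 2.5 and 2.89 with LPS. The groups did not overlap, but the change of -0.75 ± 0.259 SE did not pass (limma adjusted p = 0.147), while on the spike-in scale it did (-0.99, adjusted p = 0.0428). Mcm5, a further helicase subunit, had -0.49 (adjusted p = 0.4), from 5.25, 5.14 and 5.02 to 4.82, 4.57 and 4.56. Mcm10, which helps to activate the loaded helicase, was the exception in direction at 0.22 (adjusted p = 0.861). All 6 genes of the clamp, its loader and the single-strand binding proteins had negative changes, from -0.69 for Rpa2 to -0.14 for Rfc5, and Pcna, the sliding clamp, had -0.28 (adjusted p = 0.798). The 5 polymerase, primase and Okazaki maturation genes ran from -0.51 to -0.21. Of the genes at the start of S phase and of nucleotide supply, Ccne1 (cyclin E1, partner of CDK2) had -0.72, Ccne2 had -0.46 and Rrm2 (the regulated subunit of ribonucleotide reductase) had -0.38, none past the test.

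The mitosis genes showed a smaller shift with LPS. None of the 23 passed the limma test on the percentile scale or on the spike-in scale, and 2 had an unadjusted p under 0.05 on each. Their median change was -0.15, with 6 of 23 positive, and 7 of 23 had LPS arrays below all untreated arrays, against 15.8% of all features. The changes ran from -0.55 for Ttk, a spindle checkpoint kinase, to 0.29 for Cenpe, a kinetochore motor. Ccnb1 (cyclin B1), whose levels were 3.56, 3.54 and 3.75 in untreated cells and 3.67, 3.61 and 3.67 with LPS, had a change of 0.03. Plk1, a kinase of mitotic entry, had -0.13, Cdk1 had -0.10, Ccna2 (cyclin A2) had -0.31, Mki67 (the proliferation marker Ki-67) had -0.20 and Top2a (topoisomerase II alpha) had -0.16. The median of the replication genes was 0.26 below that of the mitosis genes, and the difference was -0.38, -0.09 and -0.25 on slides 1, 2 and 3.

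**Figure D2:**
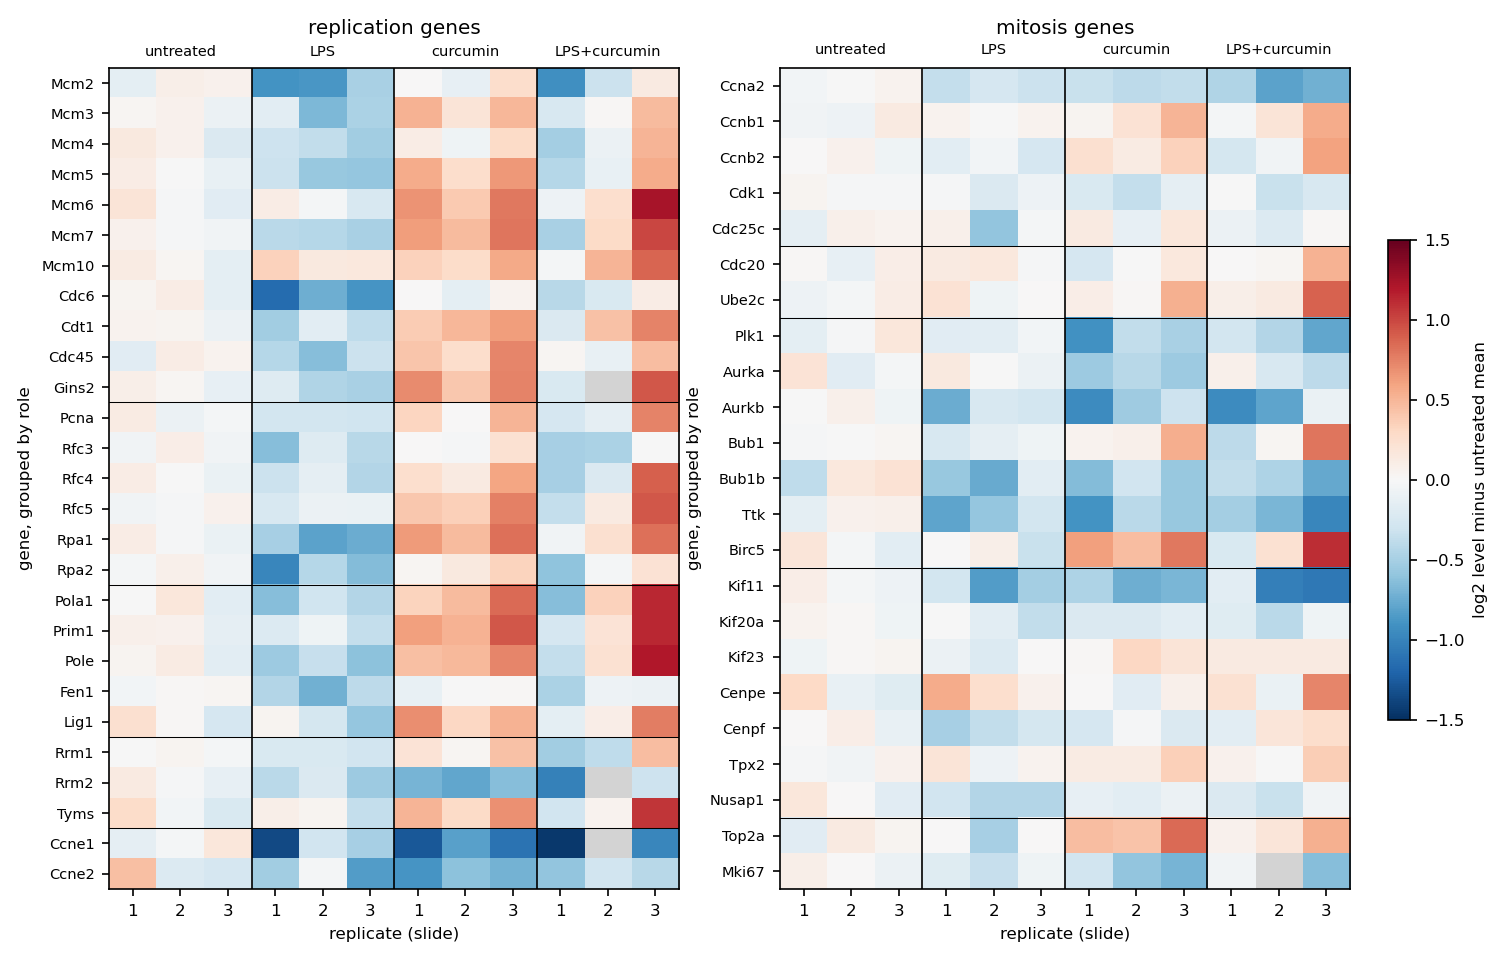
Each cell is the log2 level of 1 gene (rows, grouped by role) on 1 array (columns, 3 replicates per group) minus the gene's mean in untreated cells, on the 75th percentile scale, with grey for spots left out. LPS columns are blue for most replication genes, and curcumin columns are red for most of them but blue for Ccne1, Ccne2, Rrm2 and several mitotic kinases.

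With curcumin, Ccne1, Rrm2 and Ttk fell on each of the 5 scalings, while the median of the replication genes equalled that of all features. With normexp background correction no member passed. Ccne1 had levels of 4.83, 4.94 and 5.13 in untreated cells and of 3.70, 4.16 and 3.85 with curcumin. The groups did not overlap, and Ccne1 fell 2.09-fold (log2 change -1.06 ± 0.288 SE, limma adjusted p = 0.0234), lower on all 3 slides. Its spike-in change was -2.15 (adjusted p = 0.00253). Ccne2, its paralog, had levels of 0.82, 0.16 and 0.11 in untreated cells and of -0.52, -0.26 and -0.34 with curcumin. Its change of -0.74 ± 0.255 SE lay at the threshold without passing (adjusted p = 0.0502).

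Rrm2 had levels of 2.78, 2.62 and 2.52 in untreated cells and of 1.95, 1.86 and 2.0 with curcumin. It fell 1.63-fold (log2 change -0.70 ± 0.214 SE, limma adjusted p = 0.0354). Rrm1, the other subunit of the same enzyme, had a change of 0.22 (adjusted p = 0.478), and Tyms, which makes thymidylate, had 0.49 (adjusted p = 0.231). With the outlier spots kept, 0 replication genes passed, and the adjusted p was 0.225 for Ccne1 and 0.243 for Rrm2. The calls also ended without single arrays. For Ccne1 they were untreated replicates 1, 2 and 3 and curcumin replicates 1 and 3 (adjusted p from 0.0516 to 0.0794). For Rrm2 they were every untreated and every curcumin array and LPS replicate 1 (adjusted p from 0.0518 to 0.104).

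The Ccne1 and Rrm2 calls made 2 of 27 replication genes lower and 0 higher, against 7.27% of all features lower and 21.9% higher. At an unadjusted p under 0.05, 4 were higher and 3 lower. The median change of the replication genes was 0.41, equal to the all-feature median of 0.41, but with normexp background correction it was -0.36, with 1 of 27 positive, against 0.41 for all features. On the spike-in scale the same comparison read -0.68 against -0.67 for all features, and 16 of 27 were called lower and 0 higher, where 41.6% and 7.36% of all features were. On the percentile scale without LPS+curcumin replicate 1, 5 replication genes were higher and 3 lower, against 36.8% and 12.7%, and without LPS+curcumin replicate 3, 9 were higher and 3 lower, against 36.5% and 12.3%. With slide, which coincides with the replicate number, as a block, 1 replication gene was higher (Rpa1, adjusted p = 0.0443) and 3 lower (Ccne1, Rrm2 and Ccne2, adjusted p from 0.00853 to 0.0417), against 31.2% and 10.8%. With quantile scaling the medians were -0.05 and 0.00. The curcumin arrays lay above all untreated arrays for 16 of 27 replication genes and below them for 3, where 47.5% and 17.9% of all features did so.

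By role, 10 of 11 helicase and loading genes had a positive change with curcumin on the percentile scale and a negative median on the spike-in scale (medians 0.47 and -0.61). Mcm5 had levels of 5.69, 5.40 and 5.79 with curcumin, all above the untreated arrays (change 0.49 ± 0.245 SE, limma adjusted p = 0.136; -0.59 on the spike-in scale, adjusted p = 0.0562). Mcm2 had 0.05 and Cdc6 had -0.03, both with overlapping groups, and on the spike-in scale both were called lower (-1.04 and -1.12, adjusted p = 0.00734 and 0.00945). A further Cdc6 probe gave -0.66. All 6 clamp, clamp loader and single-strand binding genes were positive on the percentile scale (median 0.30, and -0.78 on the spike-in scale), with Pcna at 0.28 (-0.81 on the spike-in scale, adjusted p = 0.0235) and Rpa1 at 0.65 (adjusted p = 0.054; -0.43 on the spike-in scale). Prim1, the catalytic primase subunit, had the highest change of the class, 0.69 (adjusted p = 0.0956), and -0.39 on the spike-in scale.

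Of the mitosis genes, Ttk fell 1.54-fold with curcumin. Its levels were -1.27, -1.06 and -1.05 in untreated cells and -2.02, -1.53 and -1.69 with curcumin, with no overlap (log2 change -0.62 ± 0.212 SE, limma adjusted p = 0.0476). The call was close to the threshold, and it held without 1 array only when that array was LPS+curcumin replicate 1 or 3. Without any other array the adjusted p lay between 0.0543 and 0.137. Plk1 had levels of 5.19, 5.32 and 5.50 in untreated cells and of 4.43, 4.96 and 4.85 with curcumin, again with no overlap, at -0.59 ± 0.204 SE (adjusted p = 0.0507).

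Ttk was the only 1 of 23 mitosis genes called lower, against 7.27% of all features, and 0 were higher, against 21.9%. Without LPS+curcumin replicate 1, 6 were lower and 2 higher, against 12.7% and 36.8%, and without LPS+curcumin replicate 3, 7 were lower and 2 higher, against 12.3% and 36.5%. With slide as a block, 5 were lower (Kif11, Aurka, Ttk, Aurkb and Plk1, adjusted p from 0.0319 to 0.0453) and 1 higher (Top2a, adjusted p = 0.0378), against 10.8% and 31.2%. At an unadjusted p under 0.05, 7 were lower and 1 higher. The median of the mitosis genes was -0.12 against 0.41 for all features, and 9 of 23 lay below all untreated arrays while 5 lay above, where 17.9% and 47.5% of all features did so. With normexp the mitosis median was -0.70. On the spike-in scale the median was -1.20 and 21 of 23 were called lower, against 41.6% of all features. Top2a and Birc5, which encodes survivin, were the 2 mitosis genes not called on that scale, at -0.50 and -0.46.

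The mitosis genes did not shift as a block. The 7 mitotic kinases and checkpoint genes had a median of -0.50, and 5 of them lay between -0.62 and -0.50 (Ttk, Aurkb, Plk1, Bub1b and Aurka). In the same role Birc5 had 0.62 (adjusted p = 0.123) and Bub1 had 0.22. Mki67 had -0.52 (adjusted p = 0.0792), from 4.78, 4.70 and 4.60 to 4.41, 4.10 and 4.0, whereas Top2a had 0.58 (adjusted p = 0.0644), from 2.04, 2.34 and 2.25 to 2.67, 2.64 and 3.05. Ccna2 had -0.36, Cdk1 had -0.24 and Ccnb1 had 0.26 (-0.83 on the spike-in scale, adjusted p = 0.0147). Kif11, the spindle kinesin that separates the poles, had the lowest change at -0.62, but a further Kif11 probe gave 1.34. The 2 further Ccnb1 probes gave -1.05 and -0.78, opposite to the probe used. Of 14 members with several tested probes, all probes had the same sign for 13 with LPS and for 9 with curcumin.

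The median of the replication genes was 0.53 above that of the mitosis genes with curcumin, and 0.50, 0.32 and 0.64 above it on slides 1, 2 and 3. Both classes are bright on these arrays, with 22 of 27 replication and 15 of 23 mitosis genes in the brightest 20% of features. Among those features the median curcumin change was 0.49 for the replication genes, -0.04 for the mitosis genes and 0.49 for all features.

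**Figure D3:**
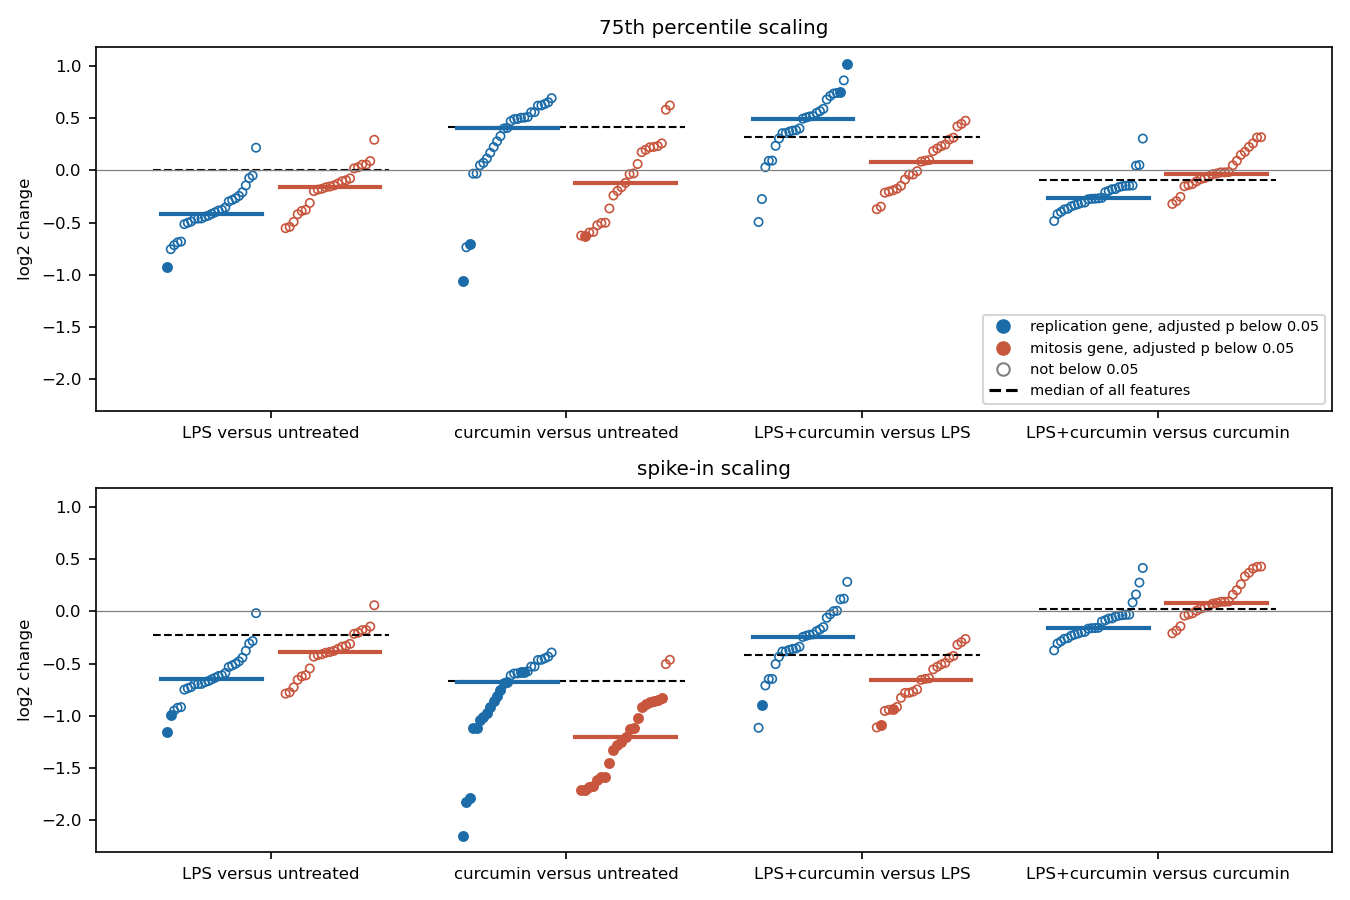
Log2 change of each replication gene (blue) and mitosis gene (red) in 4 comparisons on the 75th percentile scale (top) and the spike-in scale (bottom), with filled points for adjusted p below 0.05, coloured bars for class medians and a dashed line for the median of all features. With curcumin the replication median lies on the dashed line on both scales, at 0.41 and -0.68, and the mitosis median lies below it.

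When curcumin was given with LPS, Rpa1 and Cdc6 were higher than with LPS alone on the percentile scale, but not on the spike-in scale. Rpa1, the large subunit of the single-strand binding protein, had levels of 3.72, 3.42 and 3.48 with LPS and of 4.16, 4.47 and 5.05 with both agents. The groups did not overlap, and Rpa1 rose 2.03-fold on this scale (log2 change 1.02 ± 0.231 SE, limma adjusted p = 0.0151), higher on all 3 slides. Its spike-in change was 0.28 (adjusted p = 0.383). Cdc6 had levels of 1.25, 1.44 and 1.77 with both agents, above all LPS arrays, and rose 1.68-fold (log2 change 0.74 ± 0.195 SE, adjusted p = 0.0262). Its spike-in value was 0.01 (adjusted p = 0.989), and the further Cdc6 probe gave 0.20 on the percentile scale. The Rpa1 call ended without LPS replicate 2 or 3 (adjusted p = 0.0601 and 0.053). The Cdc6 call ended without any single LPS array or LPS+curcumin replicate 2 or 3 (adjusted p from 0.0506 to 0.0909).

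**Figure D4:**
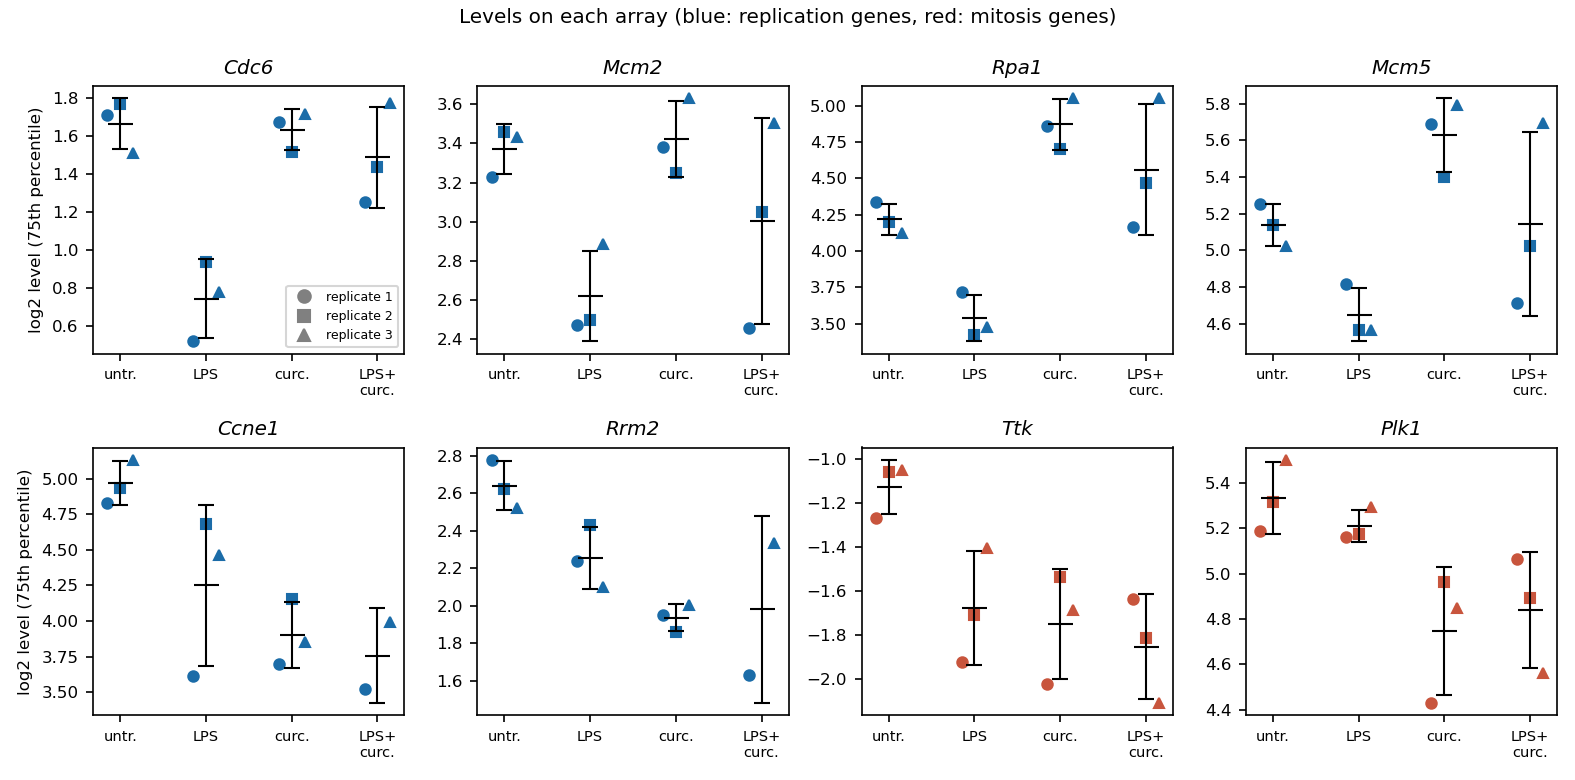
Log2 level of 8 genes on each array (circle, square and triangle are replicates 1, 2 and 3), with the mean and SD of each group as bars, on the 75th percentile scale and with an axis of its own for each gene. Cdc6 is lowest with LPS, Ccne1, Rrm2 and Ttk are lower with curcumin than in untreated cells, and replicate 1 of LPS+curcumin lies near the LPS arrays for Mcm2 and Mcm5.

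Those calls made 2 of 27 replication genes higher and 0 lower with both agents than with LPS, against 12.7% and 5.99% of all features. With slide as a block 4 were higher (Rpa1, Cdc6, Cdc45 and Cdt1, adjusted p from 0.013 to 0.043) and 0 lower, against 20.1% and 8.73%. On the spike-in scale 0 were higher and 1 was lower (Rrm2, -0.89), against 4.96% and 12.8%. The median change of the replication genes was 0.49 against 0.32 for all features, and -0.24 against -0.42 on the spike-in scale. All 11 helicase and loading genes were positive on the percentile scale, with Mcm2 at 0.38, Mcm5 at 0.49 and a median of 0.52, which was -0.22 on the spike-in scale. The groups did not overlap for 4 of 27 replication genes, all higher, where 19.4% of all features were higher and 9.25% lower in that way.

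These counts turned on LPS+curcumin replicate 1. Mcm5 had 4.71 on that array and 5.02 and 5.69 on the others of its group, against 4.82, 4.57 and 4.56 with LPS. Without this array 19 of 27 replication genes were called higher and 0 lower, against 40% and 14.8% of all features, with a median of 0.68 against 0.47. Among genes with both remaining arrays measured, Rpa1 (1.22), Cdt1 (0.95) and Mcm7 (1.09) had the smallest adjusted p-values, 0.00095 to 0.0021. Cdt1 loads MCM. Gins2, Rrm2, Ccne1 and Mki67 then rest on 1 array, which the fit assumes to vary like the other groups, and Gins2 is 1 of the 19. Without this array and on the spike-in scale, 0 were higher and 7 lower, against 8.48% and 47.4%, with a median of -0.43. Without LPS replicate 2 or LPS replicate 3, 0 replication genes were called on the percentile scale, and without LPS replicate 1 or LPS+curcumin replicate 2 or 3 there was 1. Without LPS+curcumin replicate 3 the replication median was 0.15 against 0.16 for all features.

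Ccne1 and Rrm2 stood apart from the other replication genes here as well. Ccne1 had 3.52 and 3.99 with both agents (n = 2) and 3.61, 4.68 and 4.46 with LPS, a change of -0.49 ± 0.322 SE (limma adjusted p = 0.268). Rrm2 had 1.63 and 2.34 (n = 2) against 2.24, 2.43 and 2.10, a change of -0.27. Ccne2 had 0.03. The groups overlapped for Ccne1, Rrm2 and Ccne2. Pcna had 0.40, with all arrays of both agents above those of LPS.

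Of the mitosis genes, 0 of 23 passed the limma test against LPS alone, and 1 had an unadjusted p under 0.05. Their median change was 0.08. The extremes were Plk1 at -0.37 (adjusted p = 0.196) and Cenpf, a kinetochore protein, at 0.47 (adjusted p = 0.0826). Ccna2 had -0.35, Cdk1 -0.09, Ccnb1 0.21, Mki67 -0.15 and Top2a 0.42. On the spike-in scale 2 were called lower (Ccna2 at -1.09 and Aurkb at -0.93), against 12.8% of all features, and without LPS+curcumin replicate 1 on that scale 19 were, against 47.4%, with a median of -1.02. Without it on the percentile scale 2 of 23 were higher (Cenpf and Birc5) and 2 lower (Ccna2 and Kif11), against 40% and 14.8% of all features. The mitosis median was then 0.09, against 0.47 for all features. For Kif11 the probe used gave -0.21 on all arrays and the further probe 1.20. The replication median was 0.41 above the mitosis median, and 0.03, 0.36 and 0.73 above it on slides 1, 2 and 3.

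Adding LPS to curcumin gave no call in either class. Among the replication genes 0 passed the limma test and 0 had an unadjusted p under 0.05, and the same held for the mitosis genes, against 0.202% of all features called higher and 0.0104% lower. The spike-in scale gave no call either, against 0.0984% and 0.0104%. The replication median was -0.27, from -0.48 for Mcm5 to 0.30 for Ccne2, and the mitosis median was -0.03, from -0.32 for Top2a to 0.32 for Aurka. Cdc6 had -0.15 on the percentile scale (adjusted p = 0.914). The arrays of the 2 groups did not overlap for 1 replication gene (higher) and 2 mitosis genes (1 higher, 1 lower), against 3.17% and 4.64% of all features. Without LPS+curcumin replicate 1 the replication median was 0.01, and without LPS+curcumin replicate 3 it was -0.54. With normexp the medians had the other sign, 0.45 for the replication genes (26 of 27 positive) and 0.55 for the mitosis genes (20 of 23 positive). LPS with and without curcumin is thus described by changes of -0.15 and -0.92 for Cdc6, of -0.42 and -0.75 for Mcm2 and of -0.48 and -0.49 for Mcm5.

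The difference between those pairs is the interaction, in which the curcumin change seen alone is subtracted from that seen under LPS. No member passed the limma test on either scale, with 1 replication and 1 mitosis gene at an unadjusted p under 0.05, both positive. Of all features, 0.0207% were called higher and 0.709% lower, and 0.0155% and 0.28% on the spike-in scale. Cdc6 had the highest value of the replication genes, 0.78 ± 0.276 SE (adjusted p = 0.469), and Mcm10 the lowest, -0.17. Cenpf had the highest of the mitosis genes, 0.64 ± 0.251 SE (adjusted p = 0.594), and Birc5 the lowest, -0.18. The class medians were 0.12 and 0.14, against -0.08 for all features. All 50 values were positive on the spike-in scale, with a median of 0.47. On that scale the median of all features was 0.26, and 14866 of 19318 were positive. Without LPS+curcumin replicate 1 on the spike-in scale, 46 of 50 were positive, with a median of 0.20 against 0.02 for all features. The percentile-scale medians turned on single arrays of LPS+curcumin. Without replicate 1 they were 0.45 (27 of 27 replication genes positive) and 0.12, against 0.05 for all features, and without replicate 3 they were -0.14 (8 of 27 positive) and 0.06, against -0.25. With normexp they were 0.88 and 0.74. No member was called in any of these fits.

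Genes that act upstream of both classes were read from lists of the cell cycle machinery. With LPS, Cdkn1a, which encodes the CDK inhibitor p21, rose 3.30-fold (log2 change 1.72 ± 0.243 SE, limma adjusted p = 0.00129). Its spike-in change was 1.49 (adjusted p = 0.0741). It was the only 1 of 7 CDK inhibitor genes called on the percentile scale, against 4.12% of all features higher and 1.61% lower. Of 20 tested genes of cell cycle entry and the E2F and RB families, 0 rose and 2 fell with LPS, against 1.61% of all features lower: Rbl2, an RB family member (-1.19, adjusted p = 0.00284), and E2f8, a repressor E2F (-1.05, adjusted p = 0.037). Neither passed on the spike-in scale (-1.42 and -1.28, adjusted p = 0.0697 and 0.171). E2f1, the activator E2F, had -0.66 (adjusted p = 0.219), Mybl2, which encodes B-MYB, had -0.42 and Foxm1 had -0.29. With curcumin 1 of the 20 rose and 4 fell, against 21.9% and 7.27% of all features. On the spike-in scale 0 were higher and 14 lower, against 7.36% and 41.6%. Among those that fell on the percentile scale were E2f8 (-1.29, adjusted p = 0.00547) and E2f3 (-1.0, adjusted p = 0.0227). Cdk6 rose (0.94, adjusted p = 0.0282, and -0.14 on the spike-in scale). Cdkn1a rose with curcumin on the percentile scale (0.79, adjusted p = 0.034) and had -0.29 on the spike-in scale. E2f1 had 0.53, Mybl2 0.23 and Foxm1 -0.28 with curcumin, none past the test.

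Replication and mitosis genes outside the 51 members are described from lists of 33 and 40 tested genes. Of 33 other replication genes, 0 rose and 4 fell with LPS (median -0.40), among them Gmnn, which encodes the licensing inhibitor geminin (-1.03, adjusted p = 0.0198), and Chaf1a, a histone chaperone subunit (-0.74, adjusted p = 0.0194). Neither passed on the spike-in scale (-1.27 and -0.97, adjusted p = 0.0678 and 0.186), where 1 of the 33 was lower, Uhrf1 (-1.17, adjusted p = 0.0211). Of 40 other mitosis genes, 0 rose and 1 fell (median -0.28), Cdca5, which encodes sororin (-0.73, adjusted p = 0.0386; -0.97 on the spike-in scale, adjusted p = 0.181), and 0 were called on the spike-in scale. These counts stand against 1.61% of all features lower on the percentile scale and 1.29% on the spike-in scale. With curcumin, on the spike-in scale, 21 of the 33 and 35 of the 40 were lower and 0 higher. Of all features 41.6% were lower and 7.36% higher on that scale. On the percentile scale the medians with curcumin were 0.25 and 0.04, against 0.41 for all features. Of the 33, 1 rose and 4 fell, and of the 40, 1 rose and 2 fell, against 21.9% and 7.27% of all features. There Orc1, the largest origin recognition subunit, rose (0.82, adjusted p = 0.0473; -0.26 on the spike-in scale), and Slbp, the histone mRNA binding protein, and Pole2 fell (-0.84 and -0.61, adjusted p = 0.0403 and 0.0396). Ect2, a cytokinesis factor, fell by 1.42 on the log2 scale (adjusted p = 0.00866), and Mad2l1, a checkpoint protein, fell by 0.62 (adjusted p = 0.0303), while Spc24 of the kinetochore rose (0.74, adjusted p = 0.0427; -0.34 on the spike-in scale). The mean of these other replication genes minus that of the other mitosis genes was 0.06 ± 0.11 in untreated cells, -0.13 ± 0.10 with LPS, 0.16 ± 0.10 with curcumin and -0.08 ± 0.22 with both (log2, SD, n = 3). In this difference the untreated group overlapped both the LPS group and the curcumin group. With both agents it was -0.21, -0.20 and 0.18 on replicates 1, 2 and 3.

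With both agents against LPS, 2 of the 33 other replication genes rose and 0 fell, and 3 of the 40 other mitosis genes rose and 0 fell. These counts stand against 12.7% of all features higher and 5.99% lower. On the spike-in scale 0 of the 33 were higher and 1 lower, and 1 of the 40 was higher and 3 lower, against 4.96% and 12.8%. The replication genes that rose were Orc1 (0.89, adjusted p = 0.0462) and Gins3 (0.77, adjusted p = 0.0294). Neither passed on the spike-in scale (0.16 and 0.03). Among the mitosis genes that rose were Wee1, the kinase that restrains CDK1, and Ccnf, cyclin F. Wee1 had 1.73 ± 0.431 SE (limma adjusted p = 0.0223), and 0.99 on the spike-in scale (adjusted p = 0.046). Ccnf had 0.91 (adjusted p = 0.00946), and 0.17 on the spike-in scale. Of the CDK inhibitors Cdkn1c (p57) rose (1.19, adjusted p = 0.0135; 0.45 on the spike-in scale) and Cdkn2d (p19) fell on both scales (-1.12 and -1.86, adjusted p = 0.0161 and 0.0112). Cdk6 rose on the percentile scale (0.95, adjusted p = 0.0375), and E2f1 had 0.61 (adjusted p = 0.114).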

How the data were processed

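Total RNA of 12 BV-2 samples was labelled with Cy3 and hybridised to Agilent one-colour arrays. The authors deposited scanner output, whose processed signal intensity is background-corrected by Agilent's Feature Extraction software. The version was 10.5.1.1 per the file headers and 9.1 per the submitters' processing notes. A table of signal intensities was deposited too, and its log2 values were fitted as an alternative. From the processed intensity of the scanner output, log2 signals were computed here, and the 75th percentile of an array's gene probes was subtracted. Precision is limited by 3 arrays per group. Outlier spots were dropped. Tested probes were those that all 3 arrays of some group had well above background. Probes were named through RefSeq accessions (25097 of 41174 probes matched; assembly GRCm38.p6), keeping for each gene its brightest probe, which gave 19318 features, 12658 of them named genes and the rest unnamed probes.

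All 12 arrays were fitted with limma (version 3.58.1, R 4.3.3, lmFit and eBayes) with 4 group means and no block, 5 comparisons were drawn, and p-values were Benjamini-Hochberg adjusted over all features, called below 0.05. The spike-in scale used 225 of 320 spike-in control spots. On data simulated for LPS versus untreated (19318 features), 19 of 100 changes of log2 size 1 and 75 of 100 of size 2 were recovered. Alternatives were 4 further scalings (spike-in, quantile, median, always detected probes), normexp (offset 50, on the median spot signal), the deposited table, other probe filters and rules, a replicate block, fits of the compared groups alone and leaving out each array. Same-numbered arrays share a slide. The correlation of their deviations from the group means was 0.32 on average, from -0.02 to 0.71 over 18 pairs, against -0.15 for arrays of different numbers. Not every pair exceeded 0.1, so the fit reported has no block, and the fit with slide as a block is given beside the results it changes.

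The members and lists were chosen with earlier results of these data known. Named were, per comparison and class, up to 4 called members per direction, the highest and the lowest member, Mcm2, Mcm5, Pcna, Cdc6, Rrm2, Ccne1, Ccne2, Ccna2, Ccnb1, Cdk1, Plk1, Mki67 and Top2a, and up to 2 called genes per direction from each of the other lists with E2f1, Foxm1, Mybl2 and Cdkn1a. Other genes are named as examples, chosen after their values were seen.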

Additional observations from a re-analysis of the deposited data

Results flagged for a closer look

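Cenpf was singled out because its curcumin change had opposite signs on all slides in the absence and in the presence of LPS. Without LPS it was -0.25, -0.13 and -0.11 on slides 1, 2 and 3, and with LPS it was 0.33, 0.55 and 0.54. The difference of the means was 0.64 on the log2 scale. The LPS change in Cenpf was -0.50, -0.47 and -0.16 without curcumin and 0.09, 0.21 and 0.48 with it. Their difference is the same contrast by arithmetic, so its equal size of 0.64 is no second observation. The limma test of this interaction did not pass after adjustment over all features (adjusted p = 0.594). A further Cenpf probe gave 0.20 and did not show the opposite signs. Its curcumin change was 0.27 without LPS and 0.47 with LPS. Its LPS change was -0.52 without curcumin and -0.32 with curcumin.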

How the results depend on the processing

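The counts of called genes depended on the scale and on single arrays. In the gap between the class medians, scaling by 1 constant per array cancels, apart from genes with dropped spots. Spike-in, median and always-detected scaling were thus no check on the gap. Under every alternative run the gap kept its sign for LPS (-0.29 to -0.17), curcumin (0.34 to 0.61) and both agents against LPS (0.18 to 0.59). Its curcumin value under normexp was 0.34. It did not keep its sign for LPS+curcumin against curcumin (-0.44 to 0.03) or for the interaction (-0.20 to 0.33). No member was called in these 2 comparisons under any alternative. The deposited table holds the same processed signal and gave the same counts and medians, so it was no separate check. Leaving out 1 array at a time gave these ranges of called genes. For LPS they were 0 to 4 replication and 0 mitosis genes, for curcumin 0 to 12 and 0 to 9, and for both agents against LPS 0 to 19 and 0 to 4. Of all 19318 features, 480 to 1191 were then higher and 97 to 644 lower with LPS. With curcumin 2139 to 7117 were higher and 356 to 2460 lower. For both agents against LPS 652 to 7718 were higher and 431 to 2866 lower. The class gaps then ran over the ranges above, with curcumin from 0.45 to 0.61.

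Replication genes called with LPS were 1 in the fit reported, 2 on the spike-in scale, 7 with quantile, 0 with median and 2 with always detected probes. They were 0 with normexp, 5 in the fit of the compared groups alone and 7 on the spike-in scale without LPS+curcumin replicate 1. This last combination and keeping outlier spots were chosen after seeing the data. The calls were lower. For the fit of the compared groups alone, no direction and no count over all features is given here, in any comparison. Its member counts are thus not read as a result about the members. Of all 19318 features, 796 were higher and 311 lower in the fit reported, and 369 and 250 on the spike-in scale. They were 674 and 394 with quantile, 443 and 217 with median and 796 and 412 with always detected probes. They were 181 and 16 with normexp and 861 and 1020 in the combination. With curcumin, in the order of settings given for the LPS calls, replication genes called were 16, 4, 6, 4, 0, 13 and 18, against 2. Mitosis genes called were 21, 6, 13, 4, 0, 8 and 21, against 1. The compared groups set aside, the calls were lower, except 1 replication gene with always detected probes. Of all features, 4226 were higher and 1405 lower in the fit reported, and 1422 and 8034 on the spike-in scale. They were 2325 and 2207 with quantile, 1578 and 4847 with median and 3988 and 1603 with always detected probes. They were 742 and 130 with normexp and 1589 and 10488 in the combination. For both agents against LPS, in the order given for the LPS calls, replication genes were 1, 4, 0, 4, 0, 0 and 7, against 2. Those on the spike-in scale and in the combination were lower, the others higher. Mitosis genes there were 2 on the spike-in scale, 3 with median scaling and 19 in the combination, all lower, against 0. Of all features, 2461 were higher and 1158 lower in the fit reported, and 959 and 2470 on the spike-in scale. They were 1369 and 1433 with quantile, 1000 and 3119 with median and 2809 and 1158 with always detected probes. They were 17 and 72 with normexp and 1639 and 9150 in the combination. With no filter on dim probes, 1 replication gene was lower and 0 mitosis genes were called with curcumin, where 5263 of 32115 features were higher and 1026 lower. For both agents against LPS 1 replication gene was then higher, where 1974 features were higher and 780 lower. With probes detected on all arrays, which leaves out 4 members with dropped spots, 1 replication and 2 mitosis genes were lower with curcumin. Of 15659 features 2956 were then higher and 1286 lower. With the mean over probes, 1 mitosis gene was higher and 3 lower with curcumin, where 4431 of 19323 features were higher and 1226 lower. For both agents against LPS 1 replication gene was then higher, where 2651 features were higher and 1087 lower. With outlier spots kept, replication genes were 0 with curcumin.

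With the replicate block, 4 replication genes (1 higher, 3 lower) and 6 mitosis genes (1 higher, 5 lower) were called with curcumin. Of all features 31.2% were higher and 10.8% lower. For both agents against LPS 4 replication genes were higher and 0 lower, against 20.1% and 8.73%. With LPS the block left 1 replication gene, lower, where 1016 of 19318 features were higher and 489 lower.

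With curcumin, Mcm2 turned to -1.04 on the spike-in scale, -0.79 with median scaling and -1.04 in the combination. Mcm5 had -0.59 in the combination. Pcna had -0.81, -0.43 with quantile scaling and -0.81. Ccnb1 had -0.83, -0.52 with the mean over probes and -0.83, and Ttk had 0.0096 with normexp. For both agents against LPS the combination gave -0.25 for Cdc6, -1.0 for Ccne2 and -0.77 for Ccnb1. The causes were not tested. With 3 arrays per group, changes of log2 size 1 were mostly missed in data simulated for LPS versus untreated. The other comparisons were not simulated.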
